A study of Mus musculus with 31 samples.

Results

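A set of 10 genes of the major histocompatibility complex (MHC) and of antigen presentation was followed through the basolateral amygdala (BLA) of CYFIP1 OE and WT mice, namely H2-K1, H2-D1, B2m, Tap1, Tapbp, Psmb8, H2-Aa, H2-Ab1, H2-Eb1 and Cd74. They were chosen by their GENCODE symbols, and all 10 were found among the 48709 genes of the count tables. The data are QuantSeq counts, in which each mRNA yields 1 tag near its 3′ end, and levels therefore carry no effect of gene length. There were 16 WT and 15 CYFIP1 OE mice. The OE mice carry a human CYFIP1 BAC, a large genomic construct injected into C57BL/6N donors, and the founders were bred to C57BL/6N mice. The labels number the transgenic lines 1 and 3. Each line descends from its own founder, and the line cannot be told apart from anything else that differed between its mice. Line 1 had 8 WT mice aged 59 to 61 days and 7 OE mice aged 59 to 77 days, and line 3 had 8 WT mice aged 58 to 60 days and 8 OE mice aged 58 to 64 days. Both sexes were present, with 8 female and 8 male WT mice and 8 female and 7 male OE mice. The left and right BLA of a mouse were punched from a slice and pooled into 1 sample.

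MHC class I molecules are built from a polymorphic heavy chain, such as the products of H2-K1 and H2-D1, and the invariant light chain β2-microglobulin, and they display peptides from the cell's own proteins. In the brain they are made by microglia, endothelial cells and neurons, and neuronal class I molecules are known for roles in synapse pruning and plasticity. Class II molecules display peptides taken up from outside the cell, and in the healthy brain they are found mainly on border-associated macrophages, dendritic cells and few microglia. Interferons raise most of these genes together.

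Total counts per mouse lay between 5286925 and 8685521, with a median of 7387798. A single male OE mouse of line 3, whose name begins with X424.C, stood apart from the others, with a standardized connectivity Z-score of -4.74, where the next lowest was -1.18. It was kept, and values without it are given where they change a call or a direction. The tissue label was checked with marker genes. All 6 markers of amygdala principal neurons were detected, and their summed level ranged from 190 to 1360 counts per 1000000 reads (CPM) over the mice, and that of 6 striatal markers from 234 to 5580 CPM. Choroid plexus markers summed to between 19.5 and 8400 CPM. The part of these tissues in the levels given here was not tested. Mouse Cyfip1 had 23.4 to 39.6 CPM in WT and 25.2 to 37.7 CPM in OE mice (log2 fold change -0.02, edgeR, p = 0.765), which does not check the labels, since the transgene is the human gene.

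By the GRCm38 annotation, 8 of the 10 genes lie in the MHC on chromosome 17. Listed by position there, they are Tapbp (ENSMUSG00000024308, chr17:33915899-33929292, plus strand), H2-K1 (ENSMUSG00000061232, chr17:33996017-34000347, minus strand), Tap1 (ENSMUSG00000037321, chr17:34187553-34197225, plus strand), Psmb8 (ENSMUSG00000024338, chr17:34197721-34201454, plus strand), H2-Ab1 (ENSMUSG00000073421, chr17:34257689-34269419, plus strand), H2-Aa (ENSMUSG00000036594, chr17:34282744-34287823, minus strand), H2-Eb1 (ENSMUSG00000060586, chr17:34305867-34316674, plus strand) and H2-D1 (ENSMUSG00000073411, chr17:35262730-35267499, plus strand). B2m (ENSMUSG00000060802, chr2:122147686-122153083, plus strand) and Cd74 lie elsewhere. The spans of B2m, Tap1, Psmb8 and H2-Eb1 overlap those of Patl2, Psmb9, Gm20496 and Gm20513, each on the other strand. Tapbp overlaps Zbtb22 on its own strand and Gm19412 on the other, and Cd74 overlaps Mir5107 on its own strand. Reads in the overlaps are uncertain where the strand does not part the genes.

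Of the 10 genes, 8 had a RefSeq promoter entry for GRCm38.p6, and 5 of them, those of the class I heavy and light chains and of the class II chains, are printed here to show the letters by which such genes are known to be controlled. The bases run 5′ to 3′ up to the base before the start that RefSeq annotates, which for H2-D1 lies inside the GENCODE gene span given above and for B2m just after its first base. Capitals mark enhancer A (GGGGNNTCC), bound by NF-κB, and the Y box (ATTGG, or CCAAT where it lies on the other strand), bound by NF-Y, in H2-K1 and H2-D1. In B2m they mark the core of the interferon-stimulated response element (GAAANNGAA) and the Y box, and in H2-Aa and H2-Eb1 the core of the X box (GCAAC), bound by RFX, and the Y box. Both strands were searched, and in H2-K1 and H2-D1 the enhancer A letters match on both strands in overlapping places.
H2-K1: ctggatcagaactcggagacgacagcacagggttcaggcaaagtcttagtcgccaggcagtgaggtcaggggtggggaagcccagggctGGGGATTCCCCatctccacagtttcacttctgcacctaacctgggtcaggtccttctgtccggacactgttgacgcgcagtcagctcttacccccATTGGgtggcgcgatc
H2-D1: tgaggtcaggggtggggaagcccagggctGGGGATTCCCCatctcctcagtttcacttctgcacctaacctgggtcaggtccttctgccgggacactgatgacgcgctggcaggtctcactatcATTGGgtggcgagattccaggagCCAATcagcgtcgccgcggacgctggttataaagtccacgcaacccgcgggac
B2m: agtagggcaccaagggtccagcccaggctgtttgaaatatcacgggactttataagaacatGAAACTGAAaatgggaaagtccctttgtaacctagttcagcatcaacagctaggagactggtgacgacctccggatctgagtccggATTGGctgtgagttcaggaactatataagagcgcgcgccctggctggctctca
H2-Aa: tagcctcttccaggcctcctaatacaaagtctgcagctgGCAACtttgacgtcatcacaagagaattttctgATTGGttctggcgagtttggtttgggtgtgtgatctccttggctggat
H2-Eb1: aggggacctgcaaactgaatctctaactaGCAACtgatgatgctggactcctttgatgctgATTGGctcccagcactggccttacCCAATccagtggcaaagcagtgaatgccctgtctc
H2-K1 lies at chr17:34000348-34000547 (minus strand), H2-D1 at chr17:35262894-35263093 (plus strand), B2m at chr2:122147487-122147686 (plus strand), H2-Aa at chr17:34287824-34287943 (minus strand) and H2-Eb1 at chr17:34305747-34305866 (plus strand). The windows of the heavy chain genes H2-K1 and H2-D1 share an unbroken run of 46 bases around enhancer A, which starts at the edge of the printed H2-D1 window, and no other pair of the 8 promoters shared a run of more than 10 bases. Over 250 bases before the start, enhancer A letters were found in 4.82% of 32851 RefSeq promoters, the interferon element core in 7.13%, the X box core in 29.9% and the Y box letters in 33.8%. A match describes letters only, and the lack of a match to the pattern searched does not show that an element is absent. The X box core letters of H2-D1 at position -14 were left in lower case.

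The light chain gene B2m was the most abundant of the 10, with 28.7 ± 6.57 CPM (SD, n = 31), followed by Tapbp, which encodes tapasin, the chaperone that holds class I molecules at the peptide transporter, with 17.1 ± 5.16 CPM. CPM here are scaled with TMM normalization. The heavy chains H2-D1 and H2-K1 came next with 11.2 ± 3.19 and 10.1 ± 3.45 CPM, and these neighbours in the order did not differ beyond their spread. Psmb8, a catalytic subunit of the immunoproteasome, had 2.31 ± 1.33 CPM, and Tap1, a subunit of the peptide transporter, had 1.56 ± 1.02 CPM, again within their spread. The class II genes were lowest, at 0.743 ± 1.19 CPM for H2-Aa, 0.462 ± 0.638 for H2-Eb1, 0.411 ± 0.586 for H2-Ab1 and 0.267 ± 0.447 for Cd74. In all, 6 of the 10 genes, all of class I or peptide supply, reached 10 reads in 20% of the mice or more and entered the tests among 17428 genes. The 4 class II genes did not. In bulk tissue, fewer cells of a type and less RNA per cell cannot be told apart, and this holds for every level given here.

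**Figure D1:**
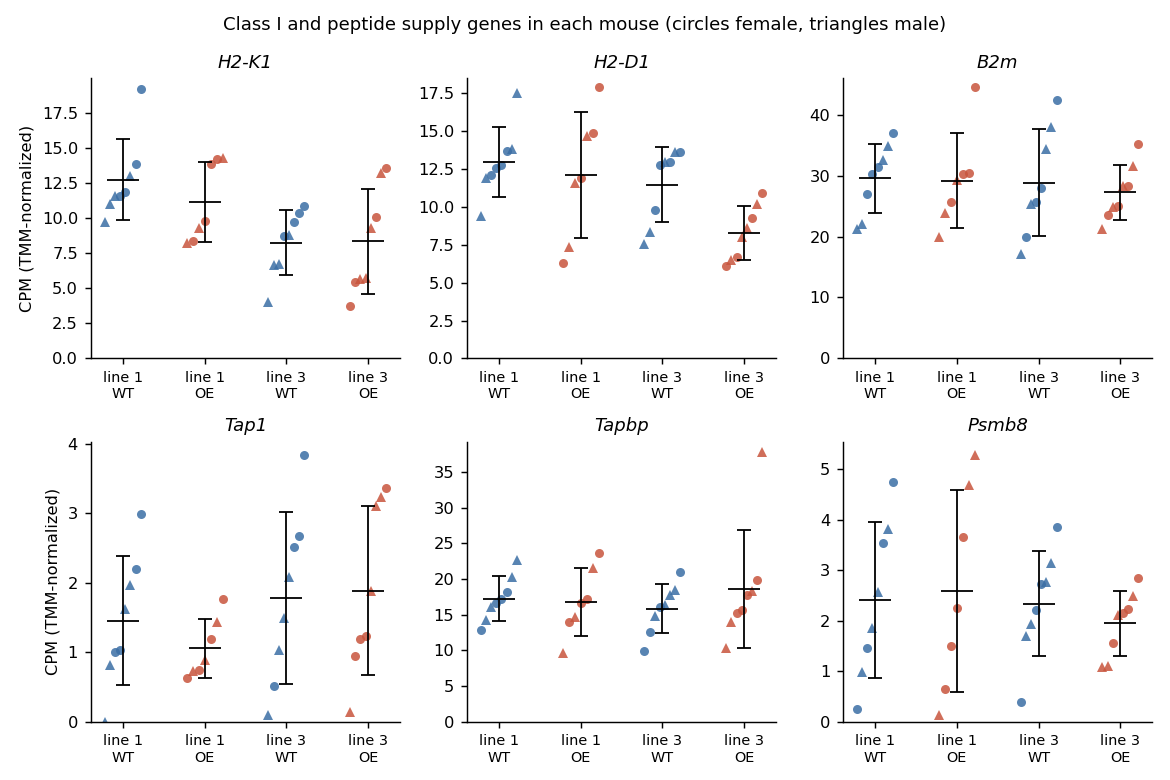
Levels of the 6 genes of class I and peptide supply in CPM (TMM-normalized, linear axes from 0), 1 point per mouse, by line and genotype (WT blue, CYFIP1 OE red, circles female, triangles male), with the mean and SD of each group in black. H2-K1 sat lower in line 3 (3.72 to 13.6 CPM) than in line 1 (8.23 to 19.2 CPM), and a single OE mouse of line 3 had a Tapbp level of 37.8 CPM.

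The first comparison was between lines. H2-K1, which encodes the heavy chain H-2K, was lower in line 3 than in line 1. In the 15 mice of line 1 it ranged from 8.23 to 19.2 CPM with a median of 11.6, and in the 16 mice of line 3 from 3.72 to 13.6 CPM with a median of 8.79. The ranges overlapped, but 7 of the 16 line 3 mice were below every line 1 mouse and 5 of the 15 line 1 mice were above every line 3 mouse. The means were 12 ± 2.88 and 8.3 ± 3.0 CPM, and the log2 fold change was -0.52 (SE 0.161, 95% interval -0.85 to -0.19, edgeR quasi-likelihood test, p = 0.00278). This was under the unadjusted threshold of 0.005 that the study used, but the adjusted p over all genes was 1.0. H2-K1 was the only 1 of the 6 tested members under 0.005, where 0.189% of all tested genes were, and with an adjusted p under 0.05 there were 0 members and 0.0% of all genes (576 genes had an unadjusted p under 0.05 in edgeR, and DESeq2 also called 0 genes after adjustment). Without the highest WT mouse of line 1 the p was 0.00582, and without the highest OE mouse of that line it was 0.00637. The fit takes the mice as independent, although mice that share a name, described below, all lie within the same line.

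H2-D1, the heavy chain H-2D, had the same direction. It ranged from 6.31 to 17.9 CPM in line 1 with a median of 12.6, and from 6.08 to 13.6 CPM in line 3 with a median of 9.53. In line 1, 6 mice were above every line 3 mouse, while 1 line 3 mouse was below every line 1 mouse. The log2 fold change was -0.35 (SE 0.138, p = 0.0167, edgeR), which did not pass 0.005. Their partner B2m overlapped throughout, with 20 to 44.6 CPM (median 30.2) in line 1 and 17.1 to 42.4 CPM (median 26.8) in line 3, and a log2 fold change of -0.05 (95% interval -0.29 to 0.19). The genes of peptide supply had values of 0.55 for Tap1 (95% interval -0.28 to 1.38), 0.00 for Tapbp (-0.30 to 0.30) and -0.22 for Psmb8 (-0.94 to 0.50), and the wide intervals of Tap1 and Psmb8 go with median counts of 9 and 15 reads per mouse. The median log2 fold change of the 6 genes was -0.14, and that of all genes 0.01. Microglial markers, 14 genes all detected, summed to 214 to 469 CPM in line 1 and to 238 to 412 CPM in line 3, and endothelial markers, 8 genes all detected, to 127 to 190 and 113 to 167 CPM. Neuron markers (6 genes) summed to 2310 ± 296 CPM (SD) in WT mice of line 1 and 2730 ± 234 CPM in line 3. In OE mice these sums were 2410 ± 544 and 2510 ± 494 CPM. The 6 striatal markers had 3510 ± 382 and 2260 ± 1450 CPM in WT mice. In OE mice their order was the other way, with 2240 ± 1320 and 3540 ± 1770 CPM. Whether any of these marker sums had a part in the line difference of H2-K1 was not tested.

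**Figure D2:**
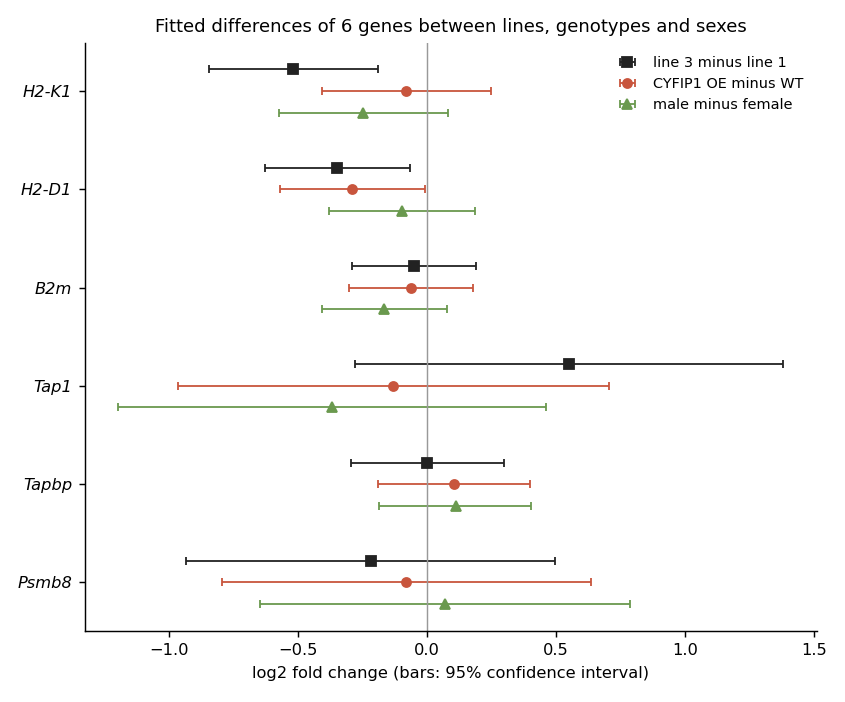
Log2 fold changes of the 6 tested genes from 1 edgeR fit over 31 mice, as points with 95% confidence intervals, for line 3 minus line 1 (black squares), CYFIP1 OE minus WT (red circles) and male minus female (green triangles). The interval lies below 0 for the line difference of H2-K1 and H2-D1 and for the genotype difference of H2-D1, and it crosses 0 for the 15 other differences drawn.

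Lines and genotypes are crossed, so the line difference was also fitted within each genotype. Among WT mice, H2-K1 had 9.75 to 19.2 CPM in line 1 (median 11.7) and 4.05 to 10.9 CPM in line 3 (median 8.79). The log2 fold change was -0.65 (SE 0.174, p = 0.00134, edgeR). Of the 8 WT mice of line 1, 7 share the name X426.B. Line and shared name can therefore hardly be told apart in this fit, and its p treats those mice as independent. Among OE mice H2-K1 had 8.23 to 14.3 CPM (median 9.77) and 3.72 to 13.6 CPM (median 7.53), with a log2 fold change of -0.42 (SE 0.273, p = 0.142). For H2-D1 the order was the other way, with -0.19 among WT mice (p = 0.284) and -0.54 among OE mice (p = 0.0317). These within-genotype values were not shown to differ, since the interaction of genotype and line had p = 0.464 for H2-K1 and p = 0.206 for H2-D1.

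Mouse names fall into 10 groups that share all but the last number, and the labels do not say whether such a name group is a litter. Line 1 held 6 name groups and line 3 held 4. Name and genotype are partly confounded, because 7 of the 8 WT mice of line 1 belong to X426.B, which has no OE mouse. In line 1 the H2-K1 means ran from 8.36 CPM in X436B.C (1 mouse) and 10.6 ± 2.94 CPM in X433A.C (n = 3) to 12.9 ± 3.1 CPM in X426.B (n = 7) and 14.3 CPM in X433A.D (1 mouse). In line 3 they were 6.93 ± 3.02 CPM in SMC12.C (n = 3), 7.92 ± 3.68 in X605B.A (n = 6), 8.95 ± 1.73 in X424.C (n = 4) and 9.54 ± 3.71 in X605A.A (n = 3). An F test of the 8 coefficients that name groups add to sex, line and genotype gave p = 0.428 for H2-K1, 0.37 for H2-D1, 0.646 for B2m, 0.872 for Tap1, 0.135 for Tapbp and 0.321 for Psmb8 (edgeR). None of the 6 tested members passed 0.005, where 0.912% of all genes did, or an adjusted p of 0.05, where 0.0115% did. At an unadjusted p under 0.05 there were 0 members and 1184 genes in edgeR, and DESeq2 called 157 genes after adjustment, none of them a member. Without X426.B the line difference of H2-K1 was -0.40 (p = 0.0904), and without X605B.A it was -0.44 (p = 0.0157), so that it kept its direction but not its side of the threshold.

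**Figure D3:**
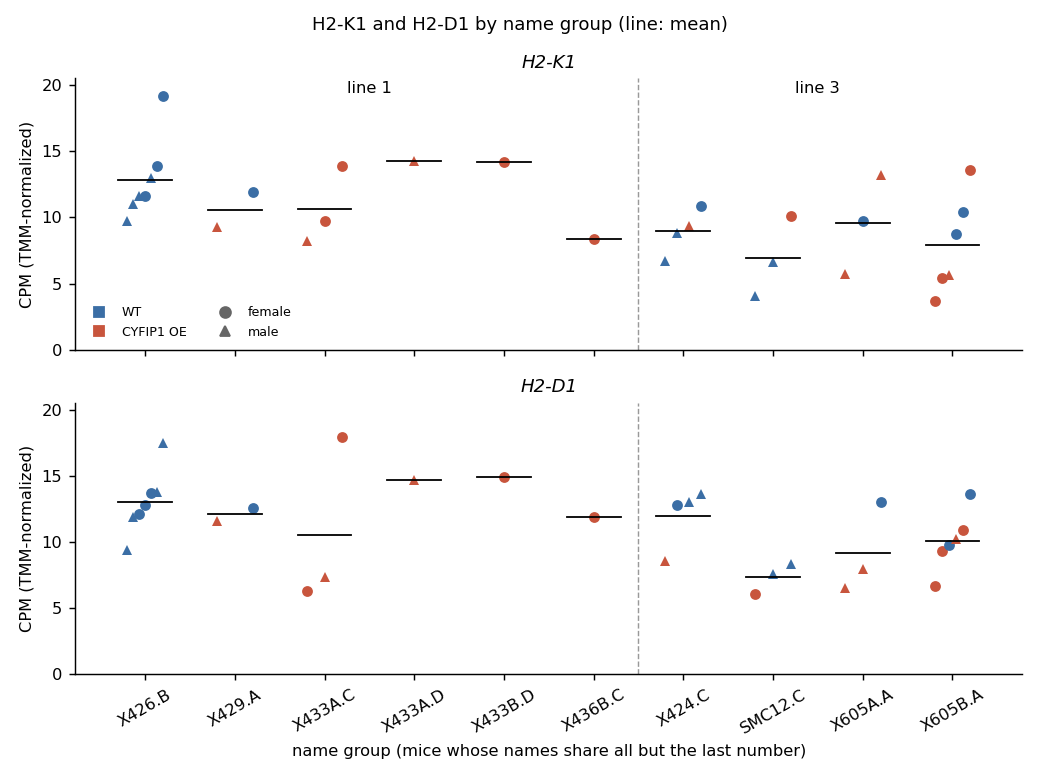
H2-K1 and H2-D1 in CPM (TMM-normalized, linear axes from 0) in the 10 name groups, 1 point per mouse (WT blue, CYFIP1 OE red, circles female, triangles male), with a black line at each name group's mean and the lines of mice split by the dashed line. H2-K1 means lay between 8.36 and 14.3 CPM in line 1 and between 6.93 and 9.54 CPM in line 3.

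The second comparison was between genotypes. None of the 6 tested genes passed the threshold. The fitted level was lower in OE mice for 5 of them, but for H2-K1, B2m, Tap1 and Psmb8 the sign changed under other settings. No shared direction is read from this count. H2-D1 ranged from 7.58 to 17.5 CPM in 16 WT mice with a median of 12.8, and from 6.08 to 17.9 CPM in 15 OE mice with a median of 9.29. The ranges overlapped, with 12 of 15 OE mice below the WT mean and 5 below every WT mouse, while the single highest level was also that of an OE mouse. The log2 fold change was -0.29 (SE 0.139, 95% interval -0.57 to -0.01, edgeR, p = 0.0441, adjusted p = 0.999). At p under 0.005 there were 0 of 6 members against 0.293% of all genes, and with an adjusted p under 0.05 there were 0 members and 0.0% of all genes. At an unadjusted p under 0.05 there were 1 member and 750 genes in edgeR, and DESeq2 called 0 genes after adjustment. With any 1 mouse left out, the p of H2-D1 lay between 0.0155 and 0.0772. The median log2 fold change of the 6 genes was -0.08, and that of all genes -0.005.

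The other 5 genes did not separate the genotypes. H2-K1 had 4.05 to 19.2 CPM in WT mice (median 10.6) and 3.72 to 14.3 in OE mice (median 9.32), with a log2 fold change of -0.08 (95% interval -0.41 to 0.25). B2m had 17.1 to 42.4 CPM (median 29.1) and 20 to 44.6 CPM (median 28.3), with -0.06 (95% interval -0.30 to 0.18). The medians of both genes lay inside the range of the other genotype. Tap1 had -0.13 (-0.97 to 0.70), Psmb8 -0.08 (-0.80 to 0.64) and Tapbp 0.10 (-0.19 to 0.40), the last of which was -0.02 without the mouse of low connectivity, whose Tapbp level was 37.8 CPM.

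The H2-D1 difference was looked at within lines. In line 3, WT mice had 7.58 to 13.6 CPM (median 12.9) and OE mice 6.08 to 10.9 CPM (median 8.29), with a log2 fold change of -0.46 (SE 0.189, p = 0.0251, edgeR). In line 1, WT mice had 9.38 to 17.5 CPM (median 12.7) and OE mice 6.31 to 17.9 CPM (median 11.9), with -0.11 (SE 0.211, p = 0.6). There were 5 name groups that held both genotypes, and with name group as a block, a choice that compares mice within them, the value was -0.44 (SE 0.201, p = 0.039). By a count chosen after the values were seen, every OE mouse had less H2-D1 than every WT mouse in 4 of the 5 mixed name groups (X424.C, SMC12.C, X605A.A and X429.A, of 2 to 4 mice each), and in X605B.A they overlapped, with OE mice at 6.69 to 10.9 CPM and WT mice at 9.77 and 13.6 CPM. In 3 of the 4 (SMC12.C, X605A.A and X429.A) the OE and WT mice were also of different sex, so that genotype and sex cannot be told apart there, and the OE mouse of X424.C was the one of low connectivity. Without TMM the count was 3 of 5, since in X429.A the OE mouse had 12.6 CPM and the WT mouse 12.5 CPM. For B2m, Tap1, Tapbp and Psmb8 the OE mice were below all WT mice in 2 of these 5 name groups, and for H2-K1 in 1. They were above all WT mice in 1 of the 5 for H2-K1, Tapbp and Psmb8. The count was not made over all genes, so it is not read as a result about H2-D1. In line 1, 4 OE mice were 77 days old and no WT mouse was, and without them the H2-D1 value was -0.26 (p = 0.0782).

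Whether the genotype difference itself differed between lines was tested with the interaction term. Its values were 0.24 for H2-K1 (95% interval -0.42 to 0.90), -0.36 for H2-D1 (-0.92 to 0.20), -0.05 for B2m (-0.54 to 0.44), 0.62 for Tap1 (-1.05 to 2.28), 0.25 for Tapbp (-0.34 to 0.84) and -0.36 for Psmb8 (-1.82 to 1.09). All 6 intervals held 0, and none of the members had p under 0.005, where 0.843% of all genes did, or an adjusted p under 0.05, where 0.0% did. At an unadjusted p under 0.05 there were 0 members and 1412 genes in edgeR, and DESeq2 called 2 genes after adjustment, neither of them a member.

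The sexes were compared in the same fit, and no member passed the test. H2-K1 ranged from 3.72 to 19.2 CPM in 16 females (median 10.6) and from 4.05 to 14.3 CPM in 15 males (median 9.27), with a log2 fold change for males of -0.25 (SE 0.161, p = 0.132, edgeR). With name group as a block it was -0.47 (SE 0.19, p = 0.0209). B2m ranged from 20 to 44.6 CPM in females (median 29.2) and from 17.1 to 38.0 CPM in males (median 25.4), with -0.17 (SE 0.118, p = 0.17). None of the 6 members passed p under 0.005, where 0.436% of all genes did, and none had an adjusted p under 0.05, where 0.0631% did. At an unadjusted p under 0.05 there were 0 members and 806 genes in edgeR, and DESeq2 gave no member an adjusted p under 0.05. The median log2 fold change of the 6 genes was -0.13, and that of all genes 0.02.

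The class II genes were near the limit of detection. H2-Aa and H2-Ab1 encode the α and β chains of I-A, H2-Eb1 encodes the β chain of I-E, and Cd74 (ENSMUSG00000024610, chr18:60803848-60812652, plus strand) encodes the invariant chain that guards the peptide groove. Together they had 451 reads over all 31 mice, between 1 and 80 reads per mouse with a median of 11. No read was counted in 12 mice for H2-Aa, in 15 for H2-Ab1, in 7 for H2-Eb1 and in 19 for Cd74. A count of 0 allows up to 3 reads, or 0.303 to 0.57 CPM depending on the library, and such limits cover counting error only.

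A pair of WT females held 31% of these reads. In a line 1 mouse of X426.B, 29 reads were counted for H2-Aa, 18 for H2-Ab1, 28 for H2-Eb1 and 5 for Cd74. A line 3 mouse of X605B.A had 43, 10, 6 and 1 reads of the same genes. In the first of these mice H2-Aa, H2-Ab1 and H2-Eb1 were each the highest among the WT mice of line 1, while Cd74 was not, and in the second H2-Aa was the highest of all 31 mice. The 7 perivascular macrophage markers summed to 11.6 CPM in the first mouse and 7.6 CPM in the second (range over mice 3.4 to 11.6), and an OE mouse of line 3 with 6 class II reads also had 11.6 CPM. The 8 endothelial markers summed to 190 and 131 CPM (range 113 to 190), and the 4 B cell markers to 1.66 and 0.901 CPM (range 0.0 to 2.87). Choroid plexus markers were high in both, at 3830 and 4180 CPM beside a median of 316 CPM over mice. They were highest, at 8400 CPM, in the WT mouse with the third largest number of class II reads (34), while a WT mouse with 6200 CPM had 18 reads and an OE mouse with 4720 CPM had 11. The part of these tissues in the class II reads was not tested.

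Between groups, H2-Aa ranged from 0 to 43 reads in WT mice (median 5, 143 reads in all) and from 0 to 14 reads in OE mice (median 2, 38 reads in all), and 6 mice of each genotype had none. Between lines it ranged from 0 to 29 reads in line 1, with 0 in 9 of 15 mice, and from 0 to 43 reads in line 3, with 0 in 3 of 16 mice. H2-Ab1 ranged from 0 to 18 reads in WT and from 0 to 10 in OE mice, H2-Eb1 from 0 to 28 and from 0 to 14, and Cd74 from 0 to 10 and from 0 to 13. In fits of fewer mice, where the filter let some of these genes through, H2-Aa had a log2 fold change of -1.12 between genotypes in line 3 (p = 0.276, edgeR), and among WT mice the line values were 0.79 for H2-Aa (p = 0.44) and 0.64 for H2-Ab1 (p = 0.526). In line 3 the filter was passed through WT mice with 14, 23 and 43 reads of H2-Aa and an OE mouse with 14. Among WT mice, most of those with 10 reads or more of either gene were of line 3. Passing the filter is thus tied to the group of higher level, and no direction is read from these fits. Over all mice the 4 genes were tested only without the filter on low counts, among 32936 genes. There the log2 fold change between genotypes was -1.52 for H2-Aa (SE 0.737, p = 0.0439, adjusted p = 0.641, edgeR), -0.58 for H2-Ab1 (p = 0.482), -0.20 for H2-Eb1 (p = 0.761) and -0.56 for Cd74 (p = 0.505). The line values were 1.42 for H2-Aa (p = 0.0551), 0.04 for H2-Ab1 (p = 0.964), -0.85 for H2-Eb1 (p = 0.199) and -1.09 for Cd74 (p = 0.206). None of the 4 genes had p under 0.005 in either comparison, where 1.11% of all genes did between genotypes and 1.16% between lines, and the lowest p, that of H2-Aa between genotypes, goes with a pair of WT mice that hold 72 of its 181 reads.

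**Figure D4:**
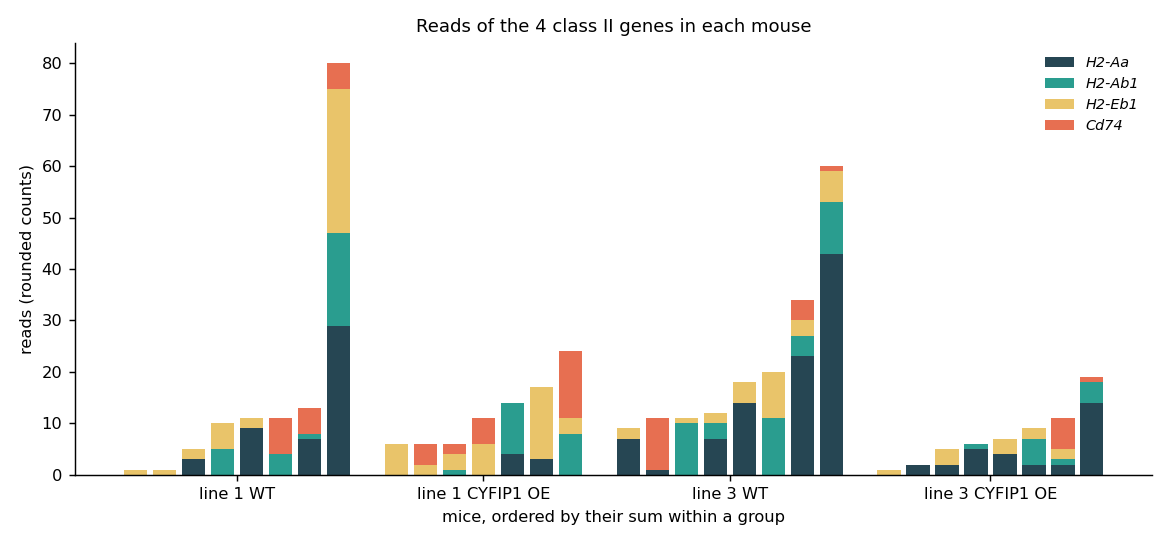
Reads of the 4 class II genes in each of the 31 mice (stacked bars, rounded counts, linear axis from 0), by line and genotype and ordered by their sum within a group. A WT mouse of line 1 with 80 reads and a WT mouse of line 3 with 60 reads stand above the rest, and 26 of the 31 mice had under 20 reads.

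How the 6 tested genes moved together over mice was described with correlations of log2 CPM for their 15 pairs. The heavy chains H2-K1 and H2-D1 gave the highest, with Pearson's r = 0.492 (permutation test with 100000 resamples, two-sided, p = 0.00475, adjusted p = 0.0712 over 15 pairs) and Spearman's rho = 0.503 (permutation p = 0.00443, adjusted p = 0.0664). With the 2 mice of most extreme H2-K1 removed, r was 0.396. The relation was uneven between lines, with rho = 0.714 in the 15 mice of line 1 and 0.112 in the 16 mice of line 3, and after removal of sex, line and genotype it was 0.325. B2m and Tap1 ran against each other, with r = -0.423 (permutation p = 0.0176, or 0.132 when adjusted) and rho = -0.421 (permutation p = 0.0188, or 0.141 when adjusted). With the 2 mice of most extreme B2m removed, r was -0.391. Tap1 had a median of 9 reads per mouse, and the mice with 0, 1 and 1 reads of it had 34.8, 34.4 and 31.6 CPM of B2m. These low Tap1 values were not removed. Neither pair passed adjustment. After removal of sex, line and genotype, B2m and Tap1 had r = -0.513 (permutation p = 0.00278, or 0.0417 when adjusted), which passed, and rho = -0.446 (permutation p = 0.0125, adjusted p = 0.187), which did not. B2m and the heavy chains did not pass either, with r = 0.288 and rho = 0.201 for H2-K1 (permutation p = 0.118 and 0.276) and r = 0.283 and rho = 0.247 for H2-D1 (permutation p = 0.123 and 0.181).

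**Figure D5:**
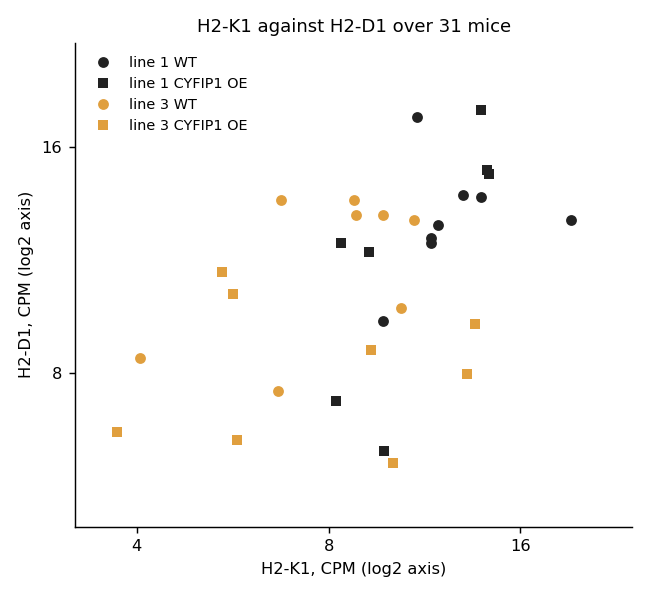
H2-D1 against H2-K1 in CPM on log2 axes, 1 point per mouse (line 1 black, line 3 orange, circles WT, squares CYFIP1 OE). Over all 31 mice Spearman's rho was 0.503, with 0.714 in line 1 and 0.112 in line 3.

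Sequence shared at the 3′ ends limits how far H2-K1 and H2-D1 can be told apart. Of the 50-base words in the last 400 bases of their coding transcripts, 10.2% of those of H2-K1 and 10.1% of those of H2-D1 also occur in another gene, most often in each other. Salmon divides such reads between genes, and the deposited counts of H2-K1 were not whole numbers in 23 of 31 mice and those of H2-D1 in all 31. For B2m, Psmb8 and the class II genes no such word was shared, for Tap1 it was 3.53% (with Tap2) and for Tapbp 4.56% (with the overlapping gene Zbtb22). Counts were also not whole in 19 mice for Tap1, 31 for Tapbp, 8 for Psmb8 and 1 for H2-Aa. The shared words thus do not account for every count that was not whole.

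The genes outside the members whose levels ranked the mice most like H2-K1 were Cpsf3 (Spearman's rho = 0.694 over 31 mice), Fndc5 (0.621) and Pou3f3 (0.621). For B2m they were Kat2b (0.666), Nid1 (0.666) and Igfbp7 (0.665), and for Cd74 they were Eme1 (0.678), Trhr (0.619) and Ece2 (0.618). They are the extremes of 17422 genes compared, and the values are given as a description. Over the same mice, H2-K1 had a rho of 0.442 with the summed T cell markers, 0.393 with the striatal and 0.356 with the microglial markers. The rho was -0.402 with the amygdala principal neuron and -0.406 with the neuron markers, and between -0.104 and 0.25 with the other marker lists. Of the 5 T cell markers, 2 had under 10 reads in every mouse. The mouse with the lowest T cell sum, 5.46 CPM, also had the lowest striatal sum, 234 CPM. The mouse with the highest T cell sum, 53.2 CPM, had a striatal sum of 5110 CPM. Whether T cells had a part in the rho of H2-K1 was not tested.

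A further 4 lists of genes of the pathway were fitted in the same models. Of 19 other class I heavy chains, 12 passed the filter. Between genotypes and lines 0 of them had p under 0.005, where 0.293% and 0.189% of all genes did. Their median log2 fold changes were -0.03 and -0.12. At an unadjusted p under 0.05 between genotypes there was 1 of the 12, beside 750 of all 17428 genes. It was higher in OE mice (edgeR, p = 0.0254), against the direction of H2-D1. Between genotypes 5 of the 12 were higher in OE mice and 7 lower. Between sexes H2-Q6, a Qa-2 class I gene, had a higher fitted level in males (log2 fold change 2.53, SE 0.835, edgeR, p = 0.00463, adjusted p = 0.97). It had 0 to 16 reads in females, with none in 12 of 16, and 0 to 33 reads in males, with none in 4 of 15. The females with reads were too few to pass the filter on low counts without males, the sex of higher level. No direction is therefore read from this test of H2-Q6. Of its 3′ words, 52.0% are shared with other genes, most often H2-Q7. The heavy chains with the highest counts were H2-Q4, with 2.03 to 16.4 CPM and 38.5% of its 3′ words shared with other genes, and H2-T24, with 2.29 to 12.8 CPM. Between genotypes and lines, H2-Q4 had log2 fold changes of -0.04 (SE 0.247) and -0.10 (SE 0.248), and H2-T24 0.15 (SE 0.22) and 0.08 (SE 0.22). Between sexes, H2-Q4 had 2.7 to 13.1 CPM in females (median 5.75) and 2.03 to 16.4 CPM in males (median 9.79). Its log2 fold change for males was 0.59 (SE 0.246, edgeR, p = 0.0216, adjusted p = 0.97), and that of H2-T24 was 0.03 (SE 0.219). At an unadjusted p under 0.05 between sexes there were 3 of the 12 genes, H2-Q6 among them, beside 806 of all 17428 genes. All 3 had higher fitted levels in males, of which that of H2-Q6 is not read as a direction. The interaction of genotype and line had p = 0.0306 for H2-T24 (edgeR, adjusted p = 0.571) and 0.165 for H2-Q4.

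Of 11 further genes of peptide supply and loading, 9 were tested. In each of the 5 tests 0 had p under 0.005, where 0.189% to 0.912% of all genes did. At such shares a count of 0 is not read as a result about a list of this size. The medians were 0.04 between genotypes and -0.07 between lines. The abundant chaperones Calr and Canx, which fold class I heavy chains, had 140 to 220 and 148 to 210 CPM, and their log2 fold changes were 0.04 (SE 0.07) and 0.07 (SE 0.061) between genotypes and 0.13 (SE 0.07) and 0.00 (SE 0.061) between lines. Of 13 further class II genes, 9 were tested and 0 had p under 0.005, beside the same shares of all genes, with medians of 0.05 and -0.08. Ctss, the protease that cleaves the invariant chain, had 27.1 to 76.2 CPM, and Lgmn, another lysosomal protease, 4.77 to 33.3 CPM, with genotype values of -0.05 (SE 0.114) and -0.14 (SE 0.207). Both are also expressed by microglia in general.

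Of 30 genes of interferon signalling, 26 were tested. Between genotypes, lines and sexes 0 had p under 0.005, where 0.293%, 0.189% and 0.436% of all genes did. The median log2 fold change was -0.04 between genotypes and -0.01 between lines. Of the 26, the name group test called 1 at p under 0.005, where 0.912% of all genes were called. This was Ifi27, an interferon-stimulated gene (p = 0.0017, adjusted p = 0.404, edgeR). It had 19.3, 52.9 and 97.1 CPM as the lowest, median and highest level in X424.C (n = 4), and between 14.9 and 41.0 CPM in the 27 mice of the other name groups. Within X424.C, the WT mice with 97.1 and 74.1 CPM had choroid plexus sums of 8400 and 6200 CPM, the OE mouse with 31.7 CPM had 4720 CPM, and the WT mouse with 19.3 CPM had 29.6 CPM, and the part of that tissue was not tested. Between genotypes Ifi27 had a log2 fold change of -0.45 (SE 0.214, edgeR, p = 0.0428, adjusted p = 0.999). At an unadjusted p under 0.05 there were 2 of the 26 genes, 1 higher and 1 lower in OE mice, beside 750 of all 17428. Choroid plexus markers summed to 1750 ± 2580 CPM (SD) in WT and 779 ± 1210 CPM in OE mice. In other name groups, WT mice with sums of 3830, 4180 and 1960 CPM had 41.0, 36.3 and 22.2 CPM of Ifi27. The part of that tissue in the genotype value was not tested. Jak1, a kinase of the interferon receptors and the other gene of this list with the highest counts, had 90.5 to 184 CPM and a log2 fold change of 0.06 (SE 0.085) between genotypes.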

How the data were processed

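RNA of BLA punches was sequenced with QuantSeq 3′ Fwd libraries. The authors mapped reads to GRCm38 with STAR and deposited expected counts per gene from Salmon, of which 23.8% to 28.7% per mouse were not whole and were rounded here. Tool versions were not given in the sources used here. The fit used edgeR 4.0.16 (R 4.3.3), its quasi-likelihood test with TMM scaling, the terms sex, line and genotype, and Benjamini-Hochberg adjustment over the 17428 genes that reached 10 reads in 20% of the mice or more. The study's own model also held sequencing components, which were not used here. Calls were read at p under 0.005 and at adjusted p under 0.05. Name group was added as 8 coefficients, and the interaction as 1. Groups, lines, sexes and ages were taken from the labels, each mouse was 1 replicate, and no library repeated another (chi-square per degree of freedom between mice of a group, 7.97 to 91.9). Depth was 5286925 to 8685521 counts. The scripts were tested on simulated data. Alternatives used DESeq2 1.42.0 and sva 3.50.0, other filters and left-out mice. Named genes were the 10 members, genes of the 4 pathway lists called at these thresholds or among the 2 with the highest mean count of a list, and the 3 genes ranking mice most like H2-K1, B2m and Cd74. The members and lists were chosen with earlier results of these data known.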

Additional observations from a re-analysis of the deposited data

Results flagged for a closer look

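In 40 groups of 7 or 8 mice (10 genes by line and genotype), Dixon's test at the 95% level set 11 values apart, which came from 8 mice. Chance flags about 1 in 20 groups of normally distributed values. That rate does not hold for the class II groups, where many mice had no reads (6 of 8 for Cd74 in line 3 OE), so the number of values is not read against it. For the tested genes these were a WT mouse of line 1 with 19.2 CPM of H2-K1, an OE mouse of line 1 with 44.6 CPM of B2m and an OE mouse of line 3 with 37.8 CPM of Tapbp, the last being the mouse of low connectivity. The other 8 values were of class II genes and rest on 6 to 43 reads. H2-Aa had 5.54 CPM in a WT mouse and 2.18 CPM in an OE mouse of line 3, and 3.21 CPM in a WT mouse of line 1. The same line 1 mouse had 1.99 CPM of H2-Ab1 and 3.1 CPM of H2-Eb1. Cd74 had 1.29 CPM in a WT mouse and 1.08 CPM in an OE mouse of line 3, and 1.7 CPM in an OE mouse of line 1.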

How the results depend on the processing

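Of 1203 member values under other settings, 1139 kept direction and side of the threshold, 5 lost the threshold and 59 changed sign. The cause of these changes was not tested. The line difference of H2-K1 lay between -0.60 and -0.47 with 1 mouse left out. It was -0.42 in OE mice alone, -0.40 without X426.B and -0.44 without X605B.A.

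Genes with p under 0.005 between genotypes (51) numbered 111 with surrogate variables, 81 with DESeq2, 111 in line 1, 80 in line 3, 109 with name group as a block and 366 without a filter, and 33 to 78 with 1 mouse left out. After adjustment there were 2 with surrogate variables. Between lines (33) they numbered 66, 75 with DESeq2, 90 in OE mice, 121 in WT mice, 383 without a filter and 62 without X605B.A, and 25 to 68 with 1 mouse left out, with 2 after adjustment without a filter. Between sexes (76) there were 47 with 10 reads in every mouse, 32 with the block and 409 without a filter, and after adjustment (11) there were 4 and 7 for the first 2 of these. For the interaction (147) there were 47 with surrogate variables, 90 with age, 591 without a filter, 93 without the mice aged 77 days, 348 without the mouse of low connectivity and 96 to 348 with 1 mouse left out, and after adjustment 2 with DESeq2, 2 without a filter and 0 to 1 with 1 mouse left out. For name groups (159) there were 504 with DESeq2, 339 with at least 3 mice, 1528 without a filter and 86 to 418 with 1 mouse left out, and after adjustment (2) there were 157, 14 and 1291, then 4 with 10 reads in every mouse, 8 with the text before the point, 0 without the mouse of low connectivity and 0 to 77 with 1 mouse left out.

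The genotype value changed sign for H2-K1 with age (0.031), in line 3 (0.047), with the replicate block of name groups (0.096) and without the mice aged 77 days (0.041). It did so for B2m without those mice (0.003), for Tap1 with age (0.013), in line 3 (0.15) and with the block (0.26), for Tapbp in line 1 (-0.046) and without the mouse of low connectivity (-0.022), and for Psmb8 with surrogate variables (0.079) and in line 1 (0.089). The line value did so for B2m with surrogate variables (0.004), and for Tapbp with them (-0.21), in WT mice (-0.12), without a filter (-0.009), without the mice aged 77 days (-0.005) and without the mouse of low connectivity (-0.11). The sex value did so for Tapbp with the block (-0.043) and without that mouse (-0.021), and for Psmb8 with the block (-0.15) and without the mice aged 77 days (-0.16). With surrogate variables the interaction changed sign for H2-K1 (-0.23) and B2m (0.002), and after removal of sex, line and genotype the rho of H2-K1 and Tap1 was 0.085. With 1 mouse left out, Tapbp lay between -0.022 and 0.161 for genotype, -0.106 and 0.038 for line and -0.021 and 0.159 for sex, Psmb8 between -0.222 and 0.028 for genotype and -0.078 and 0.18 for sex, and the interaction of B2m between -0.118 and 0.079.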
